A study of Mus musculus with 6 samples.

Results

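The genes examined here flank Pax7 on mouse chromosome 4. They are Aldh4a1, Iffo2, Ubr4, Emc1, Mrto4, Capzb, Arhgef10l and Pla2g5, 8 of the 25166 genes in the expression table. They were picked from measured values, because Aldh4a1 and Iffo2 were lower together with Pax7 in the group labelled Sirt6mKO, so their differences between the groups are given as a description and without a test. The study profiled RNA of freshly isolated muscle stem cells (MuSCs), the cells that rebuild muscle fibers after damage, from C57BL/6 mice, with 3 libraries labelled Sirt6mKO and 3 control libraries (Ctrl). Sirt6mKO mice carried Sirt6 fl/fl together with the Pax7ICN allele, which expresses constitutively active Cre under control of the Pax7 promoter, and came from crosses that also included ROSA26-YFP. The controls are labelled wild type, and the study describes its control animals as Sirt6 fl/fl without Pax7ICN. Pax7ICN is a knock-in at Pax7 itself, so that the deletion of Sirt6, the presence of Cre, and the altered Pax7 allele with the chromosome stretch linked to it cannot be told apart in these groups.

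The 8 genes have unrelated functions and share a chromosomal neighbourhood. Aldh4a1 encodes the mitochondrial enzyme that makes glutamate in the last step of proline breakdown, and Iffo2 encodes a protein of the intermediate filament family. Ubr4 is a large E3 ubiquitin ligase of the N-degron pathway, which marks proteins for degradation by their first residue. Emc1 is a subunit of the complex that inserts membrane proteins into the endoplasmic reticulum, Mrto4 assists assembly of the large ribosomal subunit, and Capzb is the beta subunit of the protein that caps actin filaments and anchors them at the Z-disc of muscle. Arhgef10l encodes a guanine nucleotide exchange factor for small GTPases, and Pla2g5 a secreted phospholipase A2. Pax7, the gene between them, encodes the paired-box transcription factor that marks MuSCs and that these cells need to persist.

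In GRCm38, the build of the table, Pax7 occupies chr4:139737062-139833528 on the minus strand. Arhgef10l lies beyond its 5' end and the other 7 genes beyond its 3' end. Aldh4a1 (chr4:139622866-139649690, plus strand) comes first at 87.4 kb from the body of Pax7, followed by Iffo2 (chr4:139530548-139620382, plus strand) at 117 kb. Ubr4 (chr4:139352609-139489588, plus strand) is 247 kb away, and Emc1 (chr4:139352587-139378730, plus strand) 358 kb. Mrto4 (chr4:139347435-139352576, minus strand) lies at 384 kb, with its start head to head with that of Emc1, and Capzb (chr4:139192899-139291818, plus strand) at 445 kb. Pla2g5 (chr4:138799244-138863482, minus strand) was the most distant member at 874 kb. On the other side, Arhgef10l (chr4:140514485-140666012, minus strand) is 681 kb away, and no gene closer to Pax7 on that side was expressed highly enough to be tested. Aldh4a1, Iffo2 and Ubr4 are therefore the 3 tested genes nearest to the 3' end of Pax7.

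**Figure D1:**
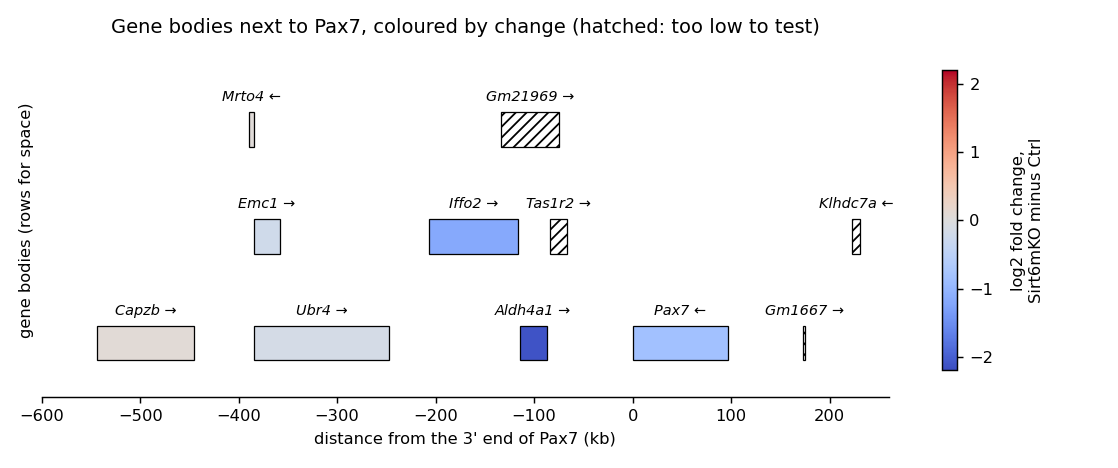
Selected gene bodies around Pax7 drawn to scale against the distance from its 3' end in kb, with arrows for the strand. The rows only separate names, and the colour is the log2 fold change of libraries labelled Sirt6mKO against Ctrl. Some genes of the stretch are not drawn, among them the tested genes Ccnd3-ps (-0.30), Akr7a5 (0.28) and Pqlc2 (-0.50) between Mrto4 and Capzb. Aldh4a1 (-2.12) and Iffo2 (-1.17) are the darkest blue, next to Pax7 (-0.84), while Ubr4 (-0.14), Emc1 (-0.22), Mrto4 (0.06) and Capzb (0.08) are near the neutral colour; hatched genes had a mean signal under 5.

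The gene models of this stretch overlap. Gm21969 (chr4:139603186-139662691, plus strand) is a readthrough gene that joins exons of Iffo2, Aldh4a1 and Tas1r2, a sweet taste receptor subunit. It shared 1595 of the 4907 exon bases of Aldh4a1 (32.5%) and 930 of the 6216 exon bases of Iffo2 (15.0%). Reads that touched more than 1 gene were not counted in the study, so the signals of both genes come mainly from the rest of their exons. Emc1 shared 2065 of its 6683 exon bases (30.9%), of which 1956 were with the antisense gene 2700016F22Rik and 109 with Ubr4. Whether counting used the strand is not given in the sources used here, and the level of Emc1 is uncertain for that reason. For Ubr4 the shared part was 0.6%, and for Mrto4, Capzb, Arhgef10l, Pla2g5 and Pax7 it was 0.

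The promoters of Aldh4a1 and Iffo2, which were lower, of Pla2g5, which was higher, and of Ubr4, the next gene along, are shown to set side by side the sequence at the starts of genes with large and small differences. They come from the RefSeq promoter table of GRCm38, in which all 8 genes have an entry. Each is printed 5' to 3' on the strand of its gene and covers the part of the 250 bases before the start that lies in no annotated exon. Capitals mark, on either strand, E-boxes (CANNTG, the motif bound by myogenic helix-loop-helix factors), GC boxes (GGGCGG) and CCAAT boxes (CCAAT); in reverse the last 2 read CCGCCC and ATTGG.
Aldh4a1, chr4:139622644-139622865, plus strand: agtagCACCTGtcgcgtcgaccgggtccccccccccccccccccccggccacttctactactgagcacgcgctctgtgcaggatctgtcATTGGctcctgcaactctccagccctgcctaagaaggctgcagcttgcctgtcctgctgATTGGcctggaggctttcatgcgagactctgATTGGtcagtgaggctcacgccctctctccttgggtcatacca
Iffo2, first start, chr4:139530298-139530547, plus strand: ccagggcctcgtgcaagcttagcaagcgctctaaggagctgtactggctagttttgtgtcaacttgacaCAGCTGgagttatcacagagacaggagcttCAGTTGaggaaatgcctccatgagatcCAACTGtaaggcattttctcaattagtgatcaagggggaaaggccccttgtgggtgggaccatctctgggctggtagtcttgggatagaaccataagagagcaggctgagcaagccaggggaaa
Iffo2, second start, chr4:139574470-139574719, plus strand: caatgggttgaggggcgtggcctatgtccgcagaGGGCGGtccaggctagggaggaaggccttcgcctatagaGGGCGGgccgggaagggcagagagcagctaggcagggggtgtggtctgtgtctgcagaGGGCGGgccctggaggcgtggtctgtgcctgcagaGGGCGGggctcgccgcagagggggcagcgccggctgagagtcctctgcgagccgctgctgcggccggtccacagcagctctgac
Ubr4, chr4:139380409-139380658, plus strand: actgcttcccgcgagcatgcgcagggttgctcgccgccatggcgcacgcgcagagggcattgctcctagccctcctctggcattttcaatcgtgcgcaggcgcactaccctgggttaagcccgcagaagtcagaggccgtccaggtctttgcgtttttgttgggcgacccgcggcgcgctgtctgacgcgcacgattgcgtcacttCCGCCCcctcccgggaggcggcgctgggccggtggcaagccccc
Pla2g5, first start, chr4:138863483-138863719, minus strand: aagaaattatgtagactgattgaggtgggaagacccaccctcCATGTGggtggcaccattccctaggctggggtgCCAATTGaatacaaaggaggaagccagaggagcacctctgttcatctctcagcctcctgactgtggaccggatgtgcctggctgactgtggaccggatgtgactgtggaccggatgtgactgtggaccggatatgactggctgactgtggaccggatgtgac

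The 4 genes do not share one arrangement of these letters. Aldh4a1 had 3 CCAAT boxes and 1 E-box, and 2.8% of the 32841 promoters of the table had 3 or more CCAAT boxes in the 250 bases before their start. The first start of Iffo2 had 3 E-boxes, 1 of them CAGCTG, against 12.2% of promoters with 3 or more. Its second start, inside the gene body, had 4 GC boxes and no E-box, and 4.1% of promoters had 4 or more GC boxes. The first start of Pla2g5 had 2 E-boxes, of which 1 overlaps its single CCAAT box, while Ubr4 had 1 GC box and neither of the other motifs. A second start of Pla2g5, not printed here, had 1 E-box and 1 CCAAT box. The number of CG dinucleotides in the printed part was 9 for Aldh4a1, 2 and 17 for the first and second start of Iffo2, and 28 for Ubr4. For Pla2g5 it was 5 at the first start, and 6 at the second. The median of all promoters was 6 in 250 bases. Over all promoters, 66.2% held an E-box, 33.9% a CCAAT box and 32.7% a GC box.

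The table holds 1 whole number per gene and library, which behaves like a read count scaled to a common depth. It is called signal here. Library totals ranged from 2272307 to 2369973 in signal, and the reads that could be recovered from the steps between values from 1267027 in Ctrl 3 to 3209958 in Ctrl 2. A single read was worth 0.729 to 1.79 units of signal, so a gene with a signal under 20 rests on few reads. Sirt6 itself had signals of 19, 20 and 13 against 18, 17 and 20 in Ctrl, a log2 fold change of -0.10 (SE 0.29, limma, adjusted p = 0.913); the values cover the whole gene, while Cre removes only some of its exons, so they neither bear out the labels nor go against them. All 13 MuSC markers were detected and 1 of them, Chrdl2, was called lower, beside 1.02% of all genes tested. Their summed signals of 16673 to 18788 against 16860 to 19862 in Ctrl hold differences in both directions. Log2 fold changes were below 0 in 7 of these markers and above 0 in 6. Pax7 had -0.84, and Notch3 and Cd34, named after their values were seen, had 0.61 and 0.60. With the adjusted p alone in limma, 2 were lower and 1 higher, beside 1.88% and 2.64% of all genes. Of 7 fibroblast markers tested 3 were called higher, Col1a2 the most at a log2 fold change of 3.55, beside 1.57% of all genes tested. The summed signal of this list was 9462 to 11559 against 6553 to 10218. Most of that sum was Col3a1, at 6685 to 8461 against 5795 to 8595 (log2 fold change 0.06). Of 6 myofiber markers 2 were called higher, beside the same share of all genes, with sums of 1210, 1392 and 303 against 268 to 294. Endothelial markers summed to 24 to 38 against 10 to 40 and immune markers to 35 to 76 against 36 to 65. Pecam1, the only endothelial marker tested, had 22, 27 and 24 against 11, 4 and 29 (log2 fold change 1.05, SE 0.51) and was not called. The endothelial gene Cdh5 stayed at 7 or below. The part of such cells in the values of the 8 genes was not tested.

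In control MuSCs the 8 genes covered a wide range of levels. Divided by exon length, to allow genes to be compared, the mean level of Ubr4 was 92.5 ± 4.68 units of signal per kilobase (SD, n = 3 here and below), above 93.9% of the 14227 genes tested. Capzb followed with 55.7 ± 9.45, Emc1 with 45.4 ± 3.99 and Mrto4 with 29.4 ± 6.42. Aldh4a1 reached 14.3 ± 4.95, above 48.6% of them, Arhgef10l 11.2 ± 1.23, Iffo2 6.11 ± 1.13 and Pla2g5 4.05 ± 0.72. Pax7 stood far above each of them, at 607 ± 79.7 per kilobase and 6.56 times Ubr4. Neighbours in this order did not overlap in their 3 control values, except Aldh4a1 with Arhgef10l and Iffo2 with Pla2g5. When exon bases shared with another gene were left out of the length, a choice made after the values were seen, Emc1 came to 65.8 ± 5.77 and stood above Capzb, and Aldh4a1 came to 21.1 ± 7.33.

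**Figure D2:**
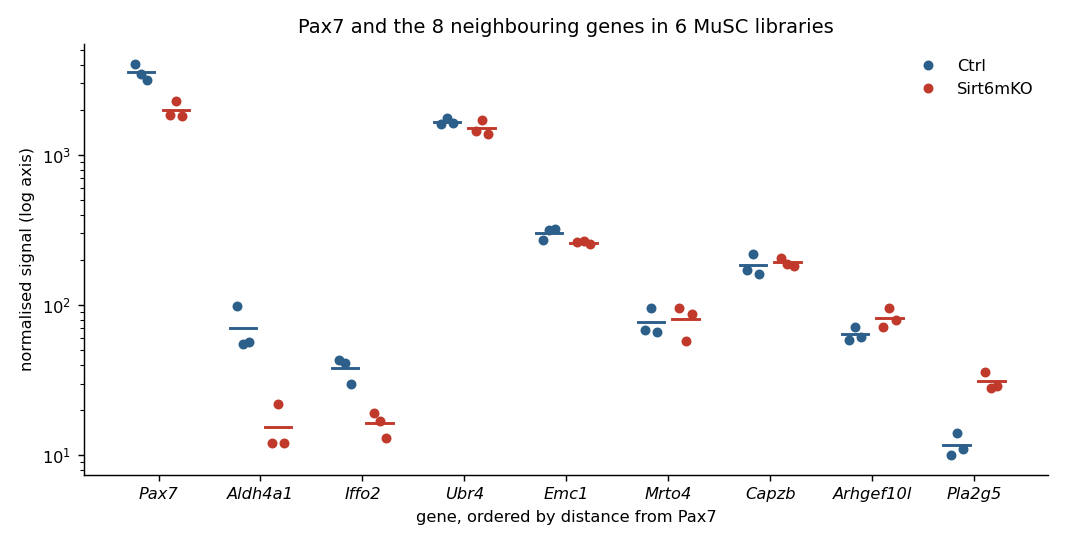
Normalised signal on a log axis for Pax7 and the 8 neighbouring genes in every library, with a line at the mean of each group of 3. Red points of libraries labelled Sirt6mKO lie below all blue control points for Pax7, Aldh4a1, Iffo2 and narrowly Emc1, above them for Pla2g5, and among them for Ubr4, Mrto4, Capzb and Arhgef10l.

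Aldh4a1 showed the largest difference of the 8 genes. Its signal was 12, 22 and 12 in the libraries labelled Sirt6mKO, whereas Ctrl had 98, 55 and 57. The groups were far apart, with the highest Sirt6mKO library below the lowest control, and Ctrl 1 stood above the other controls. Means were 15.3 ± 5.77 and 70.0 ± 24.3, which is 78.1% lower, and the log2 fold change on the log2(signal + 1) scale was -2.12 (SE 0.30). Among all 14227 genes tested, 40 including Aldh4a1 had a log2 fold change this low or lower. The signals correspond to about 14, 30 and 13 reads against 80, 75 and 32. Leaving out 1 library at a time gave log2 fold changes from -2.40 to -1.86. In bulk RNA, fewer cells that express a gene and less RNA per cell cannot be told apart, here and for the genes that follow.

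Iffo2, the next gene from Pax7, was lower by less. Its signal was 19, 17 and 13 in the libraries labelled Sirt6mKO, against 43, 41 and 30 in Ctrl. Again no library of one group reached into the other. The means of 16.3 ± 3.06 and 38.0 ± 7.0 differed by 57.0%, with a log2 fold change of -1.17 (SE 0.27), and 273 of all genes tested had one this low or lower. About 23, 23 and 14 reads stood against 35, 56 and 17. Without Ctrl 1, without Ctrl 2 or without any one of the libraries labelled Sirt6mKO the gene no longer met the thresholds given below, at log2 fold changes of -1.28 to -1.02.

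The readthrough gene, which starts within Iffo2 and spans Aldh4a1, and Tas1r2, between Aldh4a1 and Pax7, were too low to be tested. Gm21969 shared 4035 of its 4402 exon bases (91.7%) with other genes, and reads that touched more than 1 gene were not counted. Its signals were 0, 1 and 0 against 6, 4 and 4. Tas1r2, with 49.6% of its exon bases shared with Gm21969, had 0, 2 and 0 against 9, 3 and 4. In both genes every control signal was above every signal of the libraries labelled Sirt6mKO, which held for 10.1% of all genes tested. For Tas1r2 this rests on the scaling, since about 0, 3 and 0 reads against 7, 4 and 2 overlap. Both genes were at or near a floor of 3 reads, which is a signal of 2.19 to 5.38 depending on the library. On the 5' side, Gm1667 (0, 0 and 0 against 0, 0 and 2) and Klhdc7a (0, 2 and 3 against 0, 1 and 0) were at that floor in both groups.

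Pax7 itself had 4066, 3449 and 3150 in Ctrl and 1841, 2307 and 1810 in the libraries labelled Sirt6mKO, a log2 fold change of -0.84 (SE 0.13). Set against Pax7 in the same library, Aldh4a1 reached 6.5, 9.5 and 6.6 units per 1000 of Pax7 signal against 24.1, 15.9 and 18.1. These groups did not overlap, and their means differed by 2.56-fold. Iffo2 reached 10.3, 7.4 and 7.2 per 1000 of Pax7 against 10.6, 11.9 and 9.5, so the groups overlapped and the means differed by 1.29-fold. Per 1000 of Ubr4 signal, the next gene beyond them, Aldh4a1 gave 8.3, 12.8 and 8.6 against 60.8, 31.2 and 35.1. On that scale Iffo2 gave 13.2, 9.9 and 9.4 against 26.7, 23.3 and 18.5, and both pairs of groups were apart, by 4.28-fold and 2.11-fold.

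**Figure D3:**
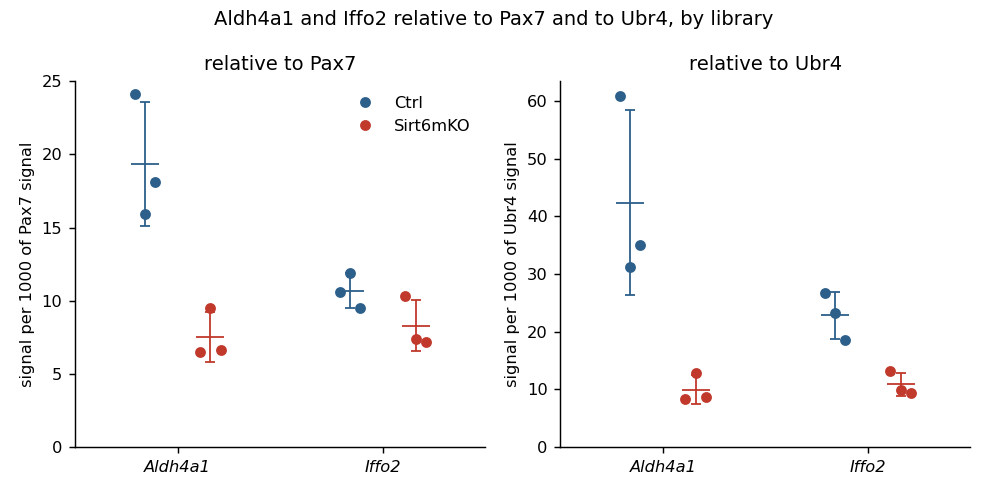
Signal of Aldh4a1 and Iffo2 per 1000 units of Pax7 signal (left) and of Ubr4 signal (right) in each library, with the mean and SD of each group of 3. Relative to Pax7 the red and blue points are apart for Aldh4a1 (6.5 to 9.5 against 15.9 to 24.1) and overlap for Iffo2 (7.2 to 10.3 against 9.5 to 11.9).

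Ubr4, Emc1, Mrto4 and Capzb, the next members on the 3' side, had small differences. For Ubr4 the libraries labelled Sirt6mKO gave 1444, 1722 and 1390, compared with 1611, 1762 and 1622 in Ctrl. The groups overlapped, with a log2 fold change of -0.14 (SE 0.11). Emc1 had 262, 266 and 254 against 273, 317 and 321, a narrow separation at a log2 fold change of -0.22 (SE 0.11). Mrto4, whose start faces that of Emc1, had 96, 58 and 87 against 68, 96 and 66. Its groups overlapped over most of their range, the log2 fold change was 0.06 (SE 0.22), and the sign changed in 5 of 15 alternative fits. Capzb had 207, 189 and 183 against 172, 219 and 160, also overlapping, with a log2 fold change of 0.08 (SE 0.14). Between Mrto4 and Capzb lie the tested genes Ccnd3-ps, Akr7a5 and Pqlc2, named after their values were seen. Their log2 fold changes were -0.30 (SE 0.57), 0.28 (SE 0.27) and -0.50 (SE 0.39), and none of them was called.

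Arhgef10l, the only member on the 5' side of Pax7, had signals of 71, 96 and 79 in the libraries labelled Sirt6mKO, compared with 59, 72 and 61 in Ctrl. One control lay just inside the range of the other group, and the log2 fold change was 0.35 (SE 0.18). Pla2g5 was the member that differed upwards. Its signal was 36, 28 and 29 against 10, 14 and 11, so all libraries labelled Sirt6mKO lay above all controls. Means were 31.0 ± 4.36 and 11.7 ± 2.08, a log2 fold change of 1.34 (SE 0.28) from about 43, 38 and 31 reads against 8, 19 and 6. Of all genes tested, 317 had a log2 fold change this high or higher. Leaving out any single library labelled Sirt6mKO left the gene short of the thresholds given below, at log2 fold changes of 1.23 to 1.41. Pla2g2a lies within an intron of Pla2g5 and shares none of its exon bases.

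All 8 members had a mean signal of at least 5 and entered the fit over all genes, in limma with Benjamini-Hochberg adjustment. A gene is called where the adjusted p is 0.05 or less and the fold change 2 or more. The members were picked from this same contrast, so for them the thresholds only sort the values already given and test nothing. On that footing 2 members fell past the thresholds on the lower side, Aldh4a1 and Iffo2, where 1.02% of all genes tested were called lower, and Pla2g5 on the higher side, where 1.57% were. With the adjusted p alone the same members were sorted out, beside 1.88% and 2.64% of all genes. The groups did not overlap, with Sirt6mKO lower, in 3 members (Aldh4a1, Iffo2 and Emc1), beside 10.1% of all genes, and with Sirt6mKO higher in 1 (Pla2g5), beside 11.1%. Log2 fold changes were below 0 in 4 members and above 0 in 4, with a median of -0.04, and the median over all genes was 0.002.

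Among the other genes near Pax7 none was called, which does not set so few genes apart from the share called over all genes. The table has 66 further genes within 2 Mb of the body of Pax7, and 37 were tested, 17 on the 3' side and 20 on the 5' side. Of these, 23 had a log2 fold change below 0 and 14 above, with a median of -0.04. The limma fit called 0 of them in either direction, as did voom on recovered reads, beside 1.02% lower and 1.57% higher over all genes tested. An unadjusted p under 0.05 in limma was reached by 2 lower and 4 higher genes. The share of all genes at that cut is not given here, so these counts show neither an excess nor a lack. With the adjusted p alone 1 was lower and 1 higher, beside 1.88% and 2.64% of all genes. They and Cplane2 are named after their values were seen. Nbl1, a secreted antagonist of bone morphogenetic proteins 644 kb from Pax7, had signals of 170, 170 and 169 against 278, 407 and 298 (log2 fold change -0.93, SE 0.15, adjusted p = 0.00367). Pink1, the kinase that marks damaged mitochondria, 1411 kb away, had 380, 438 and 387 against 267, 256 and 224 (0.69, SE 0.12, adjusted p = 0.00598). Cplane2, a cilium gene 1380 kb away on the 5' side, was the other gene with a fold change over 2, at 14, 11 and 12 against 6, 5 and 4 (1.16, SE 0.38, adjusted p = 0.12), and was not called. Rcc2 and Sdhb, the tested genes next to Arhgef10l on the 5' side, had log2 fold changes of -0.12 (SE 0.21) and -0.01 (SE 0.20). Within 1 Mb, 8 other genes were tested and limma called 0, with 1 lower at an unadjusted p under 0.05. Of these 8, 7 had a log2 fold change below 0 and 1 above, with a median of -0.20. Over the 825 other tested genes of chromosome 4, 11 were called lower and 7 higher, beside 1.02% and 1.57% of all genes tested, and the median was -0.03.

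**Figure D4:**
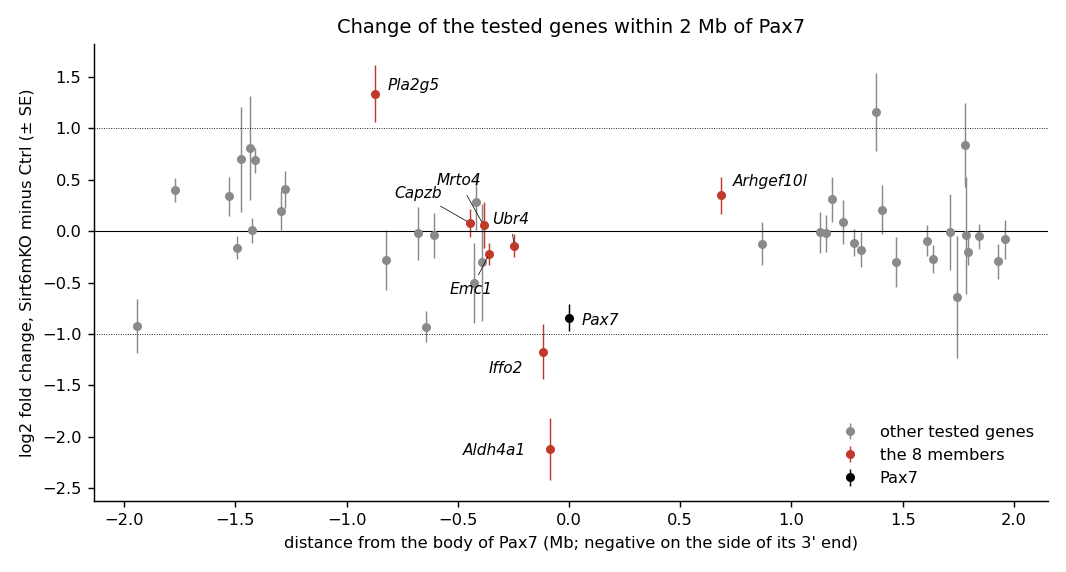
Log2 fold change with its SE for every tested gene within 2 Mb of Pax7 against distance from the body of Pax7, negative on the side of its 3' end; dotted lines mark a fold change of 2. Aldh4a1 and Iffo2, the tested genes nearest to Pax7, lie below -1, Pla2g5 lies above 1, and the other members are between -0.22 and 0.35; of the other genes Cplane2 (1.16) lies beyond a dotted line.

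For each member the genes it works with, or its paralogs, were taken from 9 lists, 121 genes in all, of which 107 were tested. Of these 0 were called lower and 1 higher by the limma fit, beside 1.02% and 1.57% of all genes. With the adjusted p alone 3 were lower and 5 higher, beside 1.88% and 2.64%, and voom on recovered reads called 0 and 1. At an unadjusted p under 0.05 in limma, 9 were lower and 13 higher. The share of all genes at that cut is not given here. This count and those of the single lists below therefore show neither an excess nor a lack. The median log2 fold change over the 107 genes was 0.04.

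Around Aldh4a1, 1 of 11 tested genes of proline and glutamate metabolism was called. Got1, the cytosolic aspartate aminotransferase, had signals of 49, 43 and 46 in the libraries labelled Sirt6mKO against 21, 21 and 20 (log2 fold change 1.12, SE 0.22, limma, adjusted p = 0.0122). With the adjusted p alone Oat, which makes the substrate of Aldh4a1 from ornithine, was higher as well (0.62, SE 0.12, adjusted p = 0.0135). Glul and Glud1, among the most abundant of the list, had log2 fold changes of 0.16 and 0.05 and did not pass. Among 13 other aldehyde dehydrogenases 0 were called, with 1 lower and 2 higher at an unadjusted p under 0.05; Aldh2, the most abundant, passed on the adjusted p alone at 0.46 (SE 0.12, adjusted p = 0.0409), and Aldh1a1 and Aldh6a1 had -0.16 and 0.25. Medians were 0.16 in both lists.

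Around Iffo2, 0 of 9 tested intermediate filament and lamin genes were called, with 3 lower and 2 higher at an unadjusted p under 0.05. On the adjusted p alone its paralog Iffo1 was lower, at 427, 397 and 397 against 594, 526 and 538 (log2 fold change -0.44, SE 0.11, limma, adjusted p = 0.0344), and so was Lmnb1, a lamin of the nuclear envelope (-0.61, SE 0.14, adjusted p = 0.0251). Des, the filament protein of muscle, was higher at 0.59 (SE 0.13, adjusted p = 0.0257), and Vim and Lmna had 0.21 and 0.20 without passing. The median of the list was 0.20.

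In the lists of Ubr4, Emc1, Mrto4 and Capzb no gene was called; at an unadjusted p under 0.05 they held 0, 1, 1 and 3 genes. None of 11 N-degron genes around Ubr4 passed either rule, with a median of 0.06 and log2 fold changes of 0.14 and -0.11 for Ubr3 and Ubr2, among the most abundant. None of the 9 other subunits of the endoplasmic reticulum membrane complex around Emc1 passed, with a median of 0.00; Emc7, Emc3 and Emc8 had 0.07, -0.15 and 0.00. None of 15 genes of large subunit assembly around Mrto4 passed, with a median of -0.05; Rplp0, Rpl12 and Rplp1 had -0.37, -0.09 and 0.12. Of 17 capping and dynactin genes around Capzb 0 were called, and Mtpn, which binds the capping protein, passed on the adjusted p alone (0.47, SE 0.12, limma, adjusted p = 0.0438). The most abundant, Cd2ap, Dctn1 and Dctn4, had -0.37, 0.19 and -0.18.

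Of 20 tested exchange factors and small GTPases around Arhgef10l 0 were called, with 2 lower and 3 higher at an unadjusted p under 0.05. Arhgef7, an exchange factor for Rac and Cdc42, was lower on the adjusted p alone, at 383, 389 and 411 against 669, 804 and 730 (log2 fold change -0.89, SE 0.11, limma, adjusted p = 0.000813). Arhgef2 and Arhgef12, the most abundant, had -0.26 and 0.00. Of the secreted phospholipase list around Pla2g5 only 3 of 6 genes could be tested and none was called, with 1 lower and 1 higher at an unadjusted p under 0.05. Pla2r1, the receptor of these enzymes, had a log2 fold change of -0.50 (SE 0.21), Pla2g12a -0.62 (SE 0.32) and Pla2g12b, at signals of 8, 8 and 9 against 5, 0 and 4, 1.58 (SE 0.65).

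**Figure D5:**
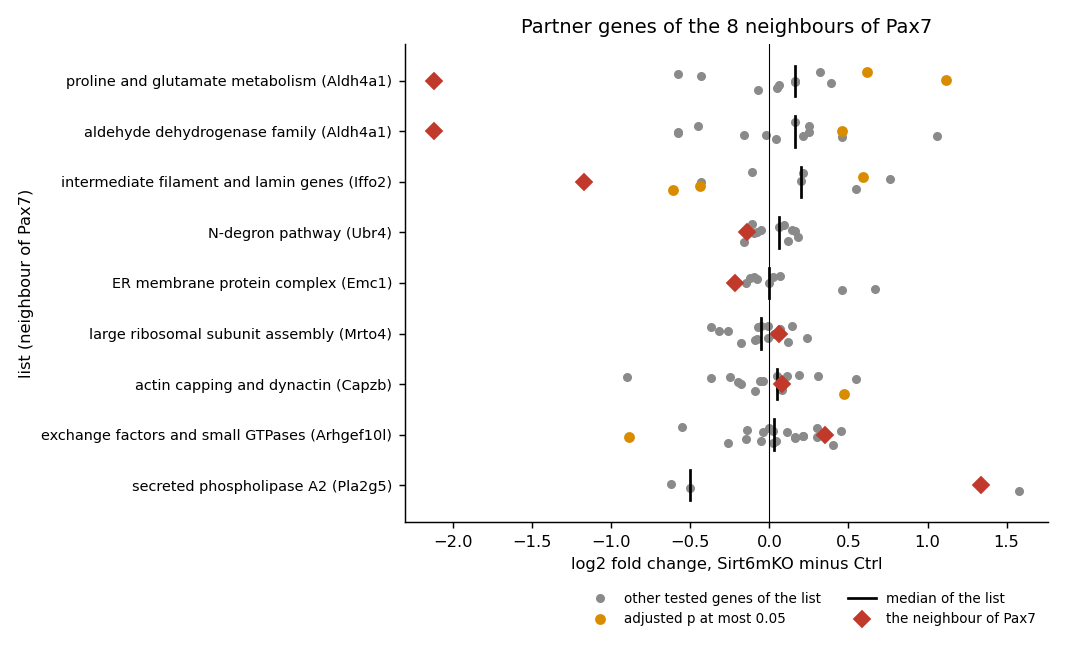
Log2 fold change of the tested genes of the 9 partner lists (grey; orange where the adjusted p was at most 0.05), with the list median as a line and the neighbour of Pax7 itself as a red diamond. Aldh4a1 and Iffo2 lie below every gene of their lists, whose medians are 0.16, 0.16 and 0.20. Both were picked because they were lower in this same contrast, so their place in the lists tests nothing. Emc1 at -0.22 also lies below its list by a small margin (lowest of its list -0.15), while the other members lie within the range of theirs.

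Genes with a profile like those of the 2 lower neighbours were found over the 6 libraries, by the root mean square difference of log2 signals centred on each gene's mean, among the 7394 genes whose mean signal was 50 or more. Closest to Aldh4a1 were Bche (0.294), Igf1 (0.319), Adam22 (0.331), Slc22a3 (0.341) and Erfe (0.423), none on chromosome 4. Bche, the nearest, had signals of 52, 51 and 52 against 304, 170 and 206. Closest to Iffo2 were Chrdl2 (0.081), Mamstr (0.117), Prkar2b (0.156), Ttyh1 (0.157) and Epb41l1 (0.158), also on other chromosomes. Pax7 and the members aside, 825 of the 14227 genes tested lie on chromosome 4, so its absence from such short lists says nothing about this stretch. Chrdl2, one of the MuSC markers above, had 500, 453 and 326 against 943, 1019 and 767. Pax7 came 19th for Iffo2 at a difference of 0.247 and 40th for Aldh4a1 at 0.684, and Aldh4a1 and Iffo2 differed from each other by 0.597. These are descriptions over 6 points that fall into 2 groups, chosen by the same contrast.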

How the data were processed

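RNA of 100-200 sorted MuSCs per library was depleted of ribosomal RNA, made into stranded total RNA libraries and sequenced as single 75-base reads, per the labels; the methods of the study name other kits. Per the submitters' processing notes the authors used FastQC, Trimmomatic 0.39, STAR 2.7.10a, Picard 2.25.5, featureCounts 2.0.2 and DESeq2 1.30.1 with mm10 (GRCm38), and the methods name Reaper as the trimmer. The deposited signal does not name its unit; its nearly equal totals and the regular gaps in Ctrl 1 and Ctrl 3 are those of read counts that the authors divided by a size factor and rounded, so reads are recovered only to the nearest step. The gate used for each group (Itga7 and CD34, or the YFP reporter) is not given in the sources used here.

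The 14227 of 25166 genes whose mean signal reached 5 were fitted as log2(signal + 1) with the trended empirical Bayes test of limma 3.58.1 in R 4.3.3, 3 libraries against 3, with Benjamini-Hochberg adjustment over all of them; a call needs an adjusted p of 0.05 or less and a fold change of 2 or more, as in the study for MuSCs. The labels do not say that replicates came from separate animals, so p-values measure only the spread between these libraries. Of the gene identifiers 99.7% were found in GENCODE M21, which gave exon lengths and overlaps. The members and all lists were chosen with earlier results of these data known. The genes named are the 8 members, Pax7, Sirt6, called genes within 2 Mb and the nearest tested genes, the called and 3 most abundant genes of each partner list, and the 5 genes most like Aldh4a1 and Iffo2, some of which are not reported here; others are said to be named after their values were seen, as are the partner genes that passed on the adjusted p alone. The fit was tried on simulated data with a single spread setting for all genes and changes larger than those of Iffo2 and Pla2g5. It therefore does not show how reliably genes like these are called. Alternatives were other scalings, filters, pseudocounts, a replicate block, voom on recovered reads, other windows and leaving out each library. Figures were drawn with matplotlib 3.10.9 in Python 3.11.15.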

Additional observations from a re-analysis of the deposited data

How the results depend on the processing

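The members were picked from these same libraries, so whether they pass the thresholds in another fit shows how the values depend on the setting and is no support for them. Aldh4a1 stayed past the thresholds in the 14 alternative fits that included it, with log2 fold changes of -2.40 to -1.86 when 1 library was left out and -2.19 to -1.87 otherwise. Iffo2 did in 9 of 14 and ranged from -1.33 to -1.02 and from -1.23 to -1.01; Pla2g5 did in 11 of 14, and with a pseudocount of 5 its log2 fold change was 1.11. Both fell short only on leaving out single libraries, where fewer samples enter the fit. None of the other 5 members passed in any of 15 fits. With a mean signal of at least 50, at which these 3 genes are not tested, 52 genes were called lower and 76 higher, where the fit described above called 145 and 223. With the adjusted p alone 267 and 376 passed, near Pax7 1 and 1 (Nbl1 and Pink1), and among the partner genes 3 and 5. A window of 4 Mb added 1 lower gene, Wnt4. Leaving out each library gave 81 to 151 genes called lower and 88 to 294 higher; near Pax7 0 to 1 were lower, Nbl1 without Ctrl 1 and Alpl without Ctrl 2. Among the partner genes 0 to 1 were higher: Got1 was not called without any one of the libraries labelled Sirt6mKO. With a pseudocount of 5 it was not called either, and 0 partner genes were. With a mean of at least 50 Got1 was not tested, and 0 partner genes were called.

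The correlations of the deviations of same-numbered libraries from their group means were 0.02, 0.07 and 0.19. Differently numbered libraries were not compared in this way, so these values do not settle whether replicate numbers pair the samples. A fit with a replicate block called 167 genes lower and 268 higher, left Aldh4a1, Iffo2 and Pla2g5 past the thresholds, and called 2 partner genes higher, Got1 and Aldh1l1. The cause of these shifts was not tested. Iffo2 and Pla2g5 rest on about 17 and 6 reads in Ctrl 3, which limits the precision of their differences.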
